A study of Mus with 8 samples.

Results

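The guanylate-binding proteins (GBP) and immunity-related GTPases (IRG) are GTP-hydrolysing proteins that interferon-γ, and to a lesser degree type I interferons, induce in macrophages and many other cells. Interferon-γ signals through the kinases JAK1 and JAK2, and this signal switches the genes on. The proteins gather on membranes around intracellular parasites and bacteria, where they help to break open the vacuole and to start inflammasome signalling. Here, 10 of these genes were followed in mouse bone marrow monocytes, as 10 of the 17640 Ensembl gene IDs of the series' count table. They comprise 6 GBP genes (Gbp2, Gbp3, Gbp4, Gbp5, Gbp7 and Gbp9) and 4 IRG genes (Igtp, Irgm1, Irgm2 and Iigp1). They were chosen by Ensembl ID, from a list drawn up with earlier results on all 8 libraries known. The list sets no threshold on a measured value. Levels and differences are given as a description of the chosen genes, and p-values come from fits of the whole table and are not independent evidence about them.

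The 8 libraries form 4 groups of 2: Jak2 V617F Vav-iCre monocytes in elastic gel, Jak2 V617F Vav-iCre monocytes in viscous gel, Vav-iCre monocytes in elastic gel and Vav-iCre monocytes in viscous gel. All cells came from C57BL/6 mice, and both genotypes carry Vav-iCre, a Cre recombinase driven by a promoter active throughout the blood lineage. In the mutant, Jak2 V617F, the activating change found in myeloproliferative neoplasms, is expressed from the endogenous gene. The Vav-iCre animals are called control here. The labels give no age. All gels were stiff, all cells were sampled on day 3, and the medium of every group held PGE2 and GM-CSF at 100 ng/mL each and IL4 at 200 ng/mL. The labels name no added interferon. The question was how gel elasticity changes these cells and whether the mutation alters that. Titles end in a number that 1 elastic and 1 viscous library share, with no word in the labels on its meaning. Here J1 and J2 stand for the lower and higher Jak2 V617F number, and W1 and W2 for the lower and higher control number. Nothing states that libraries of a group come from separate mice, so p-values cover only their spread, possibly technical.

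Library totals were 30632355 to 38408851 counts, and between 16350 and 16827 IDs had at least 1 count. The W1 libraries differed from W2 more than J1 from J2: 498 of 14785 tested IDs were at least 2-fold lower and 810 at least 2-fold higher in W1 than in W2 in both gels, against 102 IDs that differed by this much in either direction between J1 and J2. This difference does not show which control number stands apart. Results are also given without W1, but gel comparisons without both W2 libraries were not made. The files hold IDs without names, so the labelled cell type was not checked against markers here. In bulk RNA, fewer cells that express a gene and less RNA per cell cannot be told apart.

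The genes sit in a few clusters, given here by their positions in the RefSeq annotation of GRCm38.p6, the build named for the counts. Gbp5 (ENSMUSG00000105504, chr3:142496934-142522344), Gbp7 (ENSMUSG00000040253, chr3:142530336-142550151), Gbp3 (ENSMUSG00000028268, chr3:142560016-142573213) and Gbp2 (ENSMUSG00000028270, chr3:142620663-142638008) follow each other on chromosome 3, with Gbp2b, another member of the family, between Gbp3 and Gbp2. Gbp9 (ENSMUSG00000029298, chr5:105076464-105110357) and Gbp4 (ENSMUSG00000079363, chr5:105115767-105139586) are neighbours on chromosome 5. Igtp (ENSMUSG00000078853, chr11:58199556-58207592) and Irgm2 (ENSMUSG00000069874, chr11:58214977-58222783) are neighbours on chromosome 11, and Irgm1 lies apart on that chromosome (ENSMUSG00000046879, chr11:48865245-48871420). Iigp1 (ENSMUSG00000054072) is on chromosome 18. All 10 are protein-coding. GBP genes are close paralogs, and the processing notes name Salmon, which divides shared reads between similar transcripts by estimation, so part of one member's count can come from another. The annotation also places the non-coding gene Gm40158 inside Gbp3 and Mir6381 inside Gbp2, and the sources used here do not state whether strand entered the counting.

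All 10 genes were lower in elastic than in viscous gel, in both genotypes and in each of the 4 title numbers. The same held for 10.8% of the 14785 IDs tested. In the fitted average over genotypes the difference was widest for Iigp1, followed by Gbp4 and Gbp9, and smallest for the 3 regulatory IRG genes, Igtp, Irgm1 and Irgm2. The order varied between numbers: in W2, Gbp5 (log2 difference −0.72) and Gbp3 (−0.68) stood farther from 0 than Gbp9 (−0.48), and in J1, Gbp7 (−0.10) and Gbp3 (−0.16) stood nearer to 0 than Irgm1 (−0.23) and Irgm2 (−0.21). Summed over the 10 genes, J1 held 684.5 CPM (counts scaled to 1000000 per library, with TMM factors) in elastic and 853 CPM in viscous gel, and J2 held 775 CPM in elastic and 1128 CPM in viscous gel. The control sums were 609 CPM in elastic and 847 CPM in viscous gel for W1, and 955 CPM in elastic and 1277 CPM in viscous gel for W2. The lowest sum in viscous gel (W1) thus lay below the highest in elastic gel (W2), so the gels overlapped for the sum although each number shifted the same way.

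**Figure D1:**
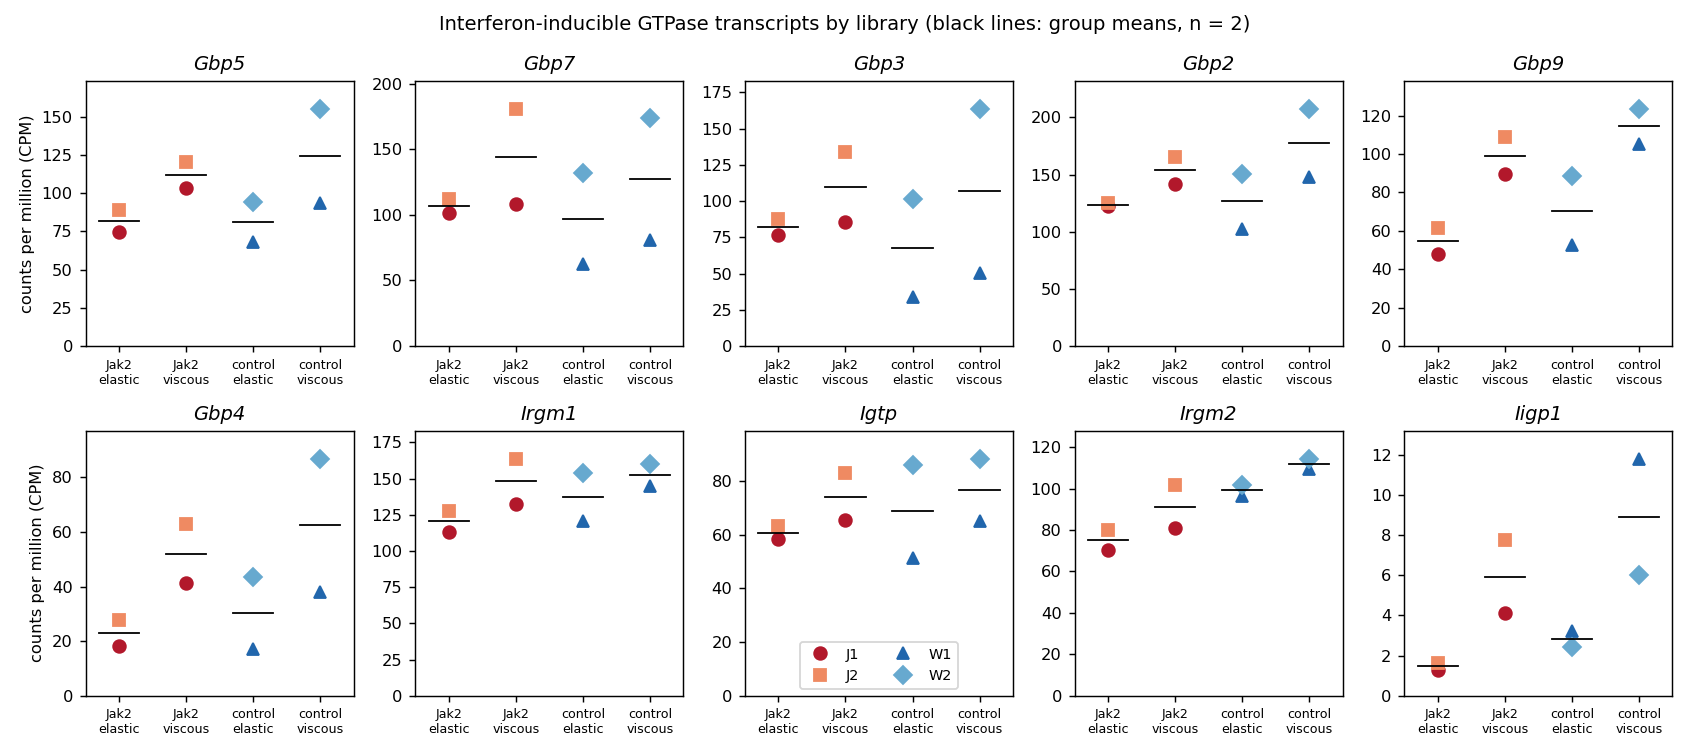
CPM (vertical axis, from 0) of each of the 10 GTPase genes in the 8 libraries, by group, with the 2 numbers of each genotype as separate symbols and group means as lines (n = 2). Each number sits lower in elastic than in viscous gel in all 10 panels, the W1 triangles lie far below the W2 diamonds for Gbp3, Gbp7 and Gbp4, and Iigp1 has its 4 elastic values between 1.28 and 3.23 CPM, under its 4 viscous values.

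Iigp1, also called Irga6, is an effector IRG that loads onto the vacuole of Toxoplasma. It had the lowest counts of the 10 genes, with 44 and 52 counts in elastic gel and 162 and 277 counts in viscous gel for Jak2 V617F cells (J1 and J2). In control cells it had 100 and 78 counts in elastic gel and 433 and 193 counts in viscous gel (W1 and W2). Scaled, Iigp1 stood at 1.28 (J1) and 1.64 CPM (J2) in elastic gel, against 4.10 (J1) and 7.77 CPM (J2) in viscous gel, in Jak2 V617F cells. In control cells Iigp1 stood at 3.23 (W1) and 2.43 CPM (W2) in elastic gel, against 11.8 (W1) and 6.01 CPM (W2) in viscous gel. All 4 elastic libraries were below all 4 viscous libraries. The closest were W1 in elastic gel, with an exact 95% Poisson interval of 2.63 to 3.93 CPM, and J1 in viscous gel, with 3.49 to 4.78 CPM. These intervals cover counting error only. Averaged over genotypes, the log2 fold change of Iigp1 was −1.84 (SE 0.32), or 3.57-fold lower in elastic gel, and 0.588% of the tested IDs had a lower one.

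Gbp4 showed nearly the same ratio in every number although its level varied. It stood at 18.2 (J1) and 27.9 CPM (J2) in elastic gel, against 41.1 (J1) and 62.9 CPM (J2) in viscous gel, in Jak2 V617F cells. In control cells Gbp4 stood at 16.96 (W1) and 43.7 CPM (W2) in elastic gel, against 38.1 (W1) and 86.7 CPM (W2) in viscous gel. W2 in elastic gel was above both J1 and W1 in viscous gel, so the gels overlapped. Within a number, the elastic level of Gbp4 was 0.443 (J1), 0.443 (J2), 0.446 (W1) and 0.504 (W2) of the viscous level.

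Gbp9, the neighbour of Gbp4, stood at 47.9 (J1) and 61.3 CPM (J2) in elastic gel, against 89.5 (J1) and 108.9 CPM (J2) in viscous gel, in Jak2 V617F cells. In control cells it stood at 52.5 (W1) and 88.4 CPM (W2) in elastic gel, against 105.5 (W1) and 123 CPM (W2) in viscous gel. The gels did not overlap, but W2 in elastic gel came within about 1 CPM of J1 in viscous gel. Iigp1 and Gbp9 were the 2 of 10 genes without overlap between the gels, a property of 1.66% of all tested IDs. Over both genotypes Gbp4 had a log2 fold change of −1.11 (SE 0.40) and Gbp9 one of −0.78 (SE 0.19), or 2.16-fold and 1.72-fold lower in elastic gel.

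The 4 genes of the chromosome 3 cluster were lower by a smaller margin, with log2 fold changes of −0.53 to −0.40 averaged over genotypes. Gbp5, which carries a C-terminal lipid anchor and is known for promoting inflammasome assembly, stood at 74.7 (J1) and 89.1 CPM (J2) in elastic gel, against 103 (J1) and 120.5 CPM (J2) in viscous gel, in Jak2 V617F cells. In control cells Gbp5 stood at 68.2 (W1) and 94.3 CPM (W2) in elastic gel, against 93.8 (W1) and 155 CPM (W2) in viscous gel. Of these 8 values only W2 in elastic and W1 in viscous gel were out of order, by under 1 CPM. Gbp2, which coats bacteria and parasite vacuoles and is likewise lipid-anchored, ranged from 103 to 151 CPM in elastic and from 142 to 207 CPM in viscous gel. Gbp3 and Gbp7 overlapped widely between the gels. Gbp3 ranged from 33.8 to 102 CPM in elastic and from 50.1 to 163 CPM in viscous gel, and Gbp7 from 62.4 to 132 CPM in elastic and from 80.6 to 180.3 CPM in viscous gel.

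Igtp (also called Irgm3), Irgm1 and Irgm2 are regulatory IRG proteins, which sit on the cell's own membranes and hold effector IRG proteins such as Iigp1 inactive there. Irgm1 is also linked to autophagy, and Irgm2 to restraint of the caspase-11 inflammasome. Their log2 fold changes were almost the same, −0.22 (SE 0.19) for Igtp, −0.22 (SE 0.13) for Irgm1 and −0.23 (SE 0.10) for Irgm2 averaged over genotypes, and 19.2% to 19.6% of all tested IDs had a lower value. Irgm2 stood at 70.1 (J1) and 79.9 CPM (J2) in elastic gel, against 80.9 (J1) and 102 CPM (J2) in viscous gel, in Jak2 V617F cells. In control cells Irgm2 stood at 96.6 (W1) and 102 CPM (W2) in elastic gel, against 109.6 (W1) and 114 CPM (W2) in viscous gel. Within each genotype both elastic values of Irgm2 were below both viscous values, as for 3 of the 10 genes (Gbp9, Iigp1 and Irgm2) and 3.92% of all tested IDs. Across genotypes they overlapped, since both control values in elastic gel exceeded J1 in viscous gel. Irgm1 ranged from 113 to 154 CPM in elastic and from 133 to 163 CPM in viscous gel, and Igtp from 51.5 to 86.1 CPM in elastic and from 65.3 to 88.2 CPM in viscous gel.

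Elastic and viscous gel were compared by edgeR's quasi-likelihood test over all 14785 IDs, with a call at a Benjamini-Hochberg adjusted p under 0.05. Averaged over genotypes, edgeR called 0 of the 10 genes, with 0% of all IDs called. The smallest adjusted p was 0.324, for Iigp1, and the next 0.515, for Gbp9. At an unadjusted p under 0.05, 4 of the 10 genes were lower in elastic gel (Iigp1, Gbp9, Gbp4 and Gbp5), against 3.38% of all IDs. limma-voom called 0 of the 10, and the DESeq2 Wald test called 2, Iigp1 (adjusted p = 1.79e-04) and Gbp9 (adjusted p = 0.0373), with 0.906% of all IDs called. On simulated data, DESeq2 made a larger share of false calls than edgeR and limma-voom. The median log2 fold change of the 10 genes was −0.47, beside −0.0043 over all tested IDs. Without the W1 libraries the median of the 10 was −0.48, edgeR called 0, and DESeq2 called 4 (Gbp4, Gbp5, Gbp9 and Iigp1), with 2.29% of all IDs called. Gbp3 was the only gene of the 10 whose averaged direction changed with 1 library left out, to 0.01 without W2 in viscous gel.

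**Figure D2:**
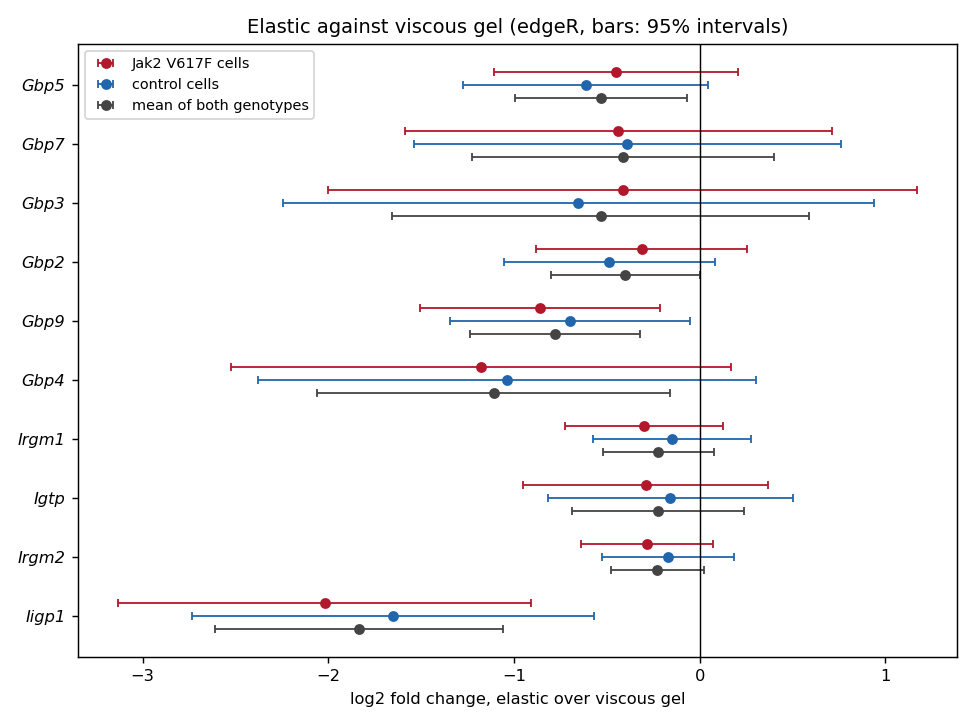
Log2 fold change of elastic over viscous gel (horizontal axis) for the 10 genes in Jak2 V617F cells, in control cells and averaged over both, with 95% intervals from the edgeR model (bars). All 30 points lie left of 0, with Iigp1 farthest out (−2.02 in Jak2 V617F and −1.65 in control cells). The bars of Gbp3, Gbp4, Gbp7 and Iigp1 are wide.

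In Jak2 V617F cells alone, Iigp1 was 4.05-fold lower in elastic gel (log2 fold change −2.02, SE 0.46), Gbp4 2.26-fold lower (−1.18, SE 0.56) and Gbp9 1.82-fold lower (−0.86, SE 0.27). The other 7 genes had log2 fold changes of −0.45 to −0.28. edgeR called 0 of the 10 (all adjusted p = 1), with 0% of all IDs called, limma-voom called 0, and DESeq2 called Iigp1 (adjusted p = 0.0435), with 0.237% of all IDs called. At an unadjusted edgeR p under 0.05 there were 2 genes, Iigp1 and Gbp9, against 1.77% of all IDs in this direction. Leaving out W1 removes no Jak2 V617F library but leaves 1 library in each control group. DESeq2 then gave log2 fold changes of −2.02 for Iigp1, −1.17 for Gbp4 and −0.86 for Gbp9. This fit was added after seeing the data. In control cells, Iigp1 was 3.14-fold lower in elastic gel (−1.65, SE 0.45), Gbp4 2.06-fold lower (−1.04, SE 0.56) and Gbp9 1.62-fold lower (−0.70, SE 0.27). The others had log2 fold changes of −0.65 to −0.15. edgeR called 0 of the 10 (adjusted p 0.985 to 0.987), with 0% of all IDs called, limma-voom called 0, and DESeq2 called 0, with 0.237% of all IDs called. At an unadjusted edgeR p under 0.05 there were again Iigp1 and Gbp9, against 2.54% of all IDs. In control cells some directions rested on 1 library. Without W2 in viscous gel the log2 fold changes were 0.44 for Gbp3, 0.27 for Gbp7 and 0.08 for Igtp, and without W1 in elastic gel they were 0.05 for Gbp7, 0.02 for Irgm1 and 0.17 for Igtp. Gbp4 kept its direction but not its size, with −0.32 without W2 in viscous gel and −1.88 without W2 in elastic gel. Without W2 in elastic gel Gbp3 had −1.66 and Gbp7 −1.02, and Gbp3 had −1.27 without W1 in viscous gel and −0.07 without W1 in elastic gel. Such fits set libraries of different numbers against each other.

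Whether the mutation altered the difference between the gels was tested as an interaction, the gel effect (log2) of Jak2 V617F less the gel effect of control. It was −0.37 for Iigp1 (95% interval −1.88 to 1.14), −0.16 for Gbp9 (−1.07 to 0.75) and −0.14 for Gbp4 (−2.01 to 1.74). The smallest interval, that of Irgm2, ran from −0.61 to 0.39 around −0.11. The widest, that of Gbp3, ran from −2.001 to 2.48 around 0.24. All 10 intervals included 0, and they do not show that the genotypes respond alike. edgeR called 0 of the 10, and 0 at an unadjusted p under 0.05, with 0% of all IDs called. limma-voom called 0, and DESeq2 called 0, with 0.0135% of all IDs called. The median over the 10 genes was −0.12, beside −0.03 over all IDs, and the sign of this median was positive (0.35) without W2 in elastic gel.

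For 0 of the 10 genes did all 4 Jak2 V617F libraries lie above or below all 4 control libraries, against 6.89% of all tested IDs, which with 10 genes is close to the background. Irgm2 had 70.1 and 79.9 CPM in Jak2 V617F against 96.6 and 102 CPM in control cells in elastic gel. In viscous gel Irgm2 had 80.9 and 102 CPM in Jak2 V617F against 109.6 and 114 CPM in control cells. Its groups did not overlap within either gel, and the Jak2 V617F libraries were on the same side in both, as for 1 of the 10 genes and 13.6% of all IDs. Its log2 fold changes were −0.40 (SE 0.15) in elastic and −0.29 (SE 0.15) in viscous gel. Iigp1 was lower in both Jak2 V617F libraries than in both control libraries in elastic gel (log2 fold change −0.95, SE 0.46), and the genotypes overlapped in viscous gel (−0.58, SE 0.44). In all, 2 of the 10 genes were without overlap in elastic gel and 1 in viscous gel, against 36.1% and 38.0% of all IDs. For the remaining 8 genes the log2 fold changes lay between −0.40 and 0.28 in elastic and between −0.26 and 0.18 in viscous gel.

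In elastic gel edgeR called 0 of the 10 genes between genotypes (adjusted p 0.937 to 0.997), with 0% of all IDs called. Only Irgm2 had an unadjusted p under 0.05, against 4.42% of all IDs. DESeq2 called 0, with 0.298% of all IDs called. In viscous gel edgeR called 0 (adjusted p 0.664 to 0.990), with 0% of all IDs called and 0 of the 10 genes at an unadjusted p under 0.05, against 7.31% of all IDs. DESeq2 called 0 there, with 0.413% of all IDs called, and limma-voom called 0 in both gels. With the counts of each number summed over the gels (2 sums against 2, 15239 IDs), edgeR called 0 (adjusted p 0.792 to 0.959), with 0% of all IDs called and 0 of the 10 at an unadjusted p under 0.05, against 5.22% of all IDs. DESeq2 called 0 of the 10 on the sums, with 0.696% of all IDs called, and limma-voom called 0. The largest differences in the sums were −0.65 (SE 0.44) for Iigp1 and −0.33 (SE 0.14) for Irgm2.

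The genotype difference of Gbp3, Gbp7 and Gbp4 changed sign with the control number used. The genotype differences over both gels of Gbp2, Gbp5, Igtp and Irgm1 were below 0 in the main fit. They also changed sign among the alternative fits, with highest values of 0.15, 0.28, 0.23 and 0.04. Only Gbp9, Irgm2 and Iigp1 kept their sign in all 10 alternative fits of this comparison. For Gbp3 the summed log2 fold change of Jak2 V617F over control was 0.15 (SE 0.58). Without W1 it was −0.45, and without W2 it was 1.21 (edgeR adjusted p = 0.0221). Without W2 edgeR called 1 of the 10 genes, Gbp3, with 16.6% of 16004 IDs called. Gbp7 went the same way, with 0.18 in all sums, −0.27 without W1 and 0.83 without W2. Gbp4 had −0.28 in all sums, −0.76 without W1 and 0.46 without W2, and Iigp1 had −0.65 in all sums, −0.13 without W1 and −1.02 without W2. With a Jak2 V617F number left out instead, Iigp1 had −0.30 without J1 and −1.09 without J2. With 1 sum of a genotype left, that sum is assumed to vary like those of the other genotype.

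**Figure D3:**
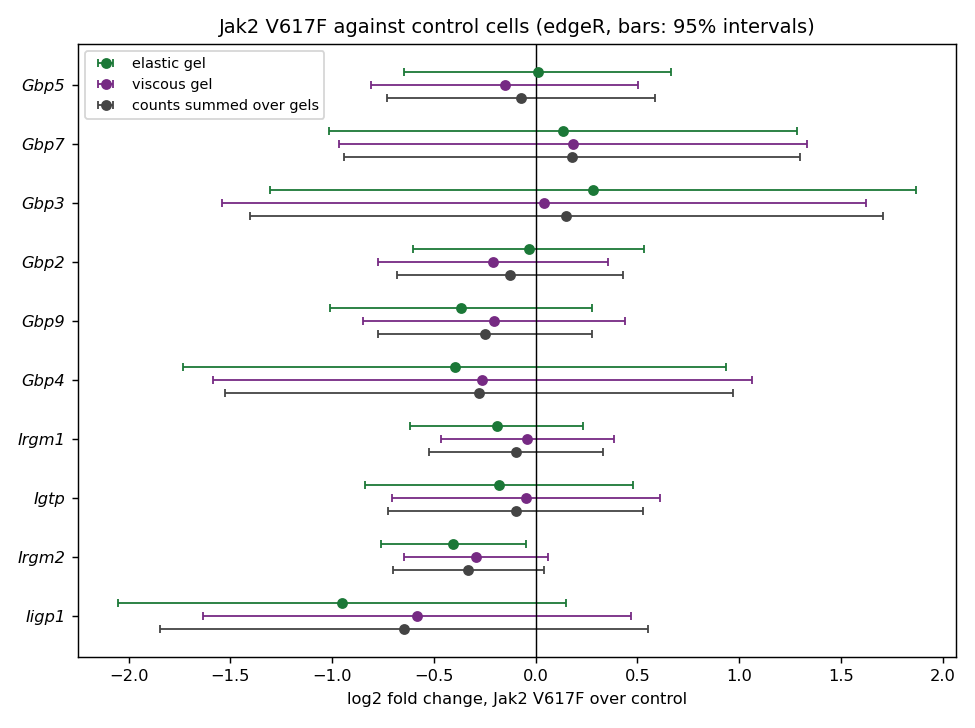
Log2 fold change of Jak2 V617F over control (horizontal axis) for the 10 genes in elastic gel, in viscous gel and on counts summed over both gels, with 95% intervals from the edgeR model (bars). Every interval includes 0 except that of Irgm2 in elastic gel (−0.76 to −0.048), and Gbp3 and Gbp4 have the widest bars.

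For Gbp3 and Gbp7 the differences between the control numbers were wider than those between gels or genotypes. For Gbp4 they were wider than those between genotypes. In viscous gel W1 minus W2 was −1.18 (log2) for Gbp4, about equal to its gel effect of −1.18 in Jak2 V617F cells. The differences between the control numbers were unequal between neighbouring genes. Gbp3 stood at 33.8 CPM in W1 and 102 CPM in W2 in elastic gel, and at 50.1 CPM in W1 and 163 CPM in W2 in viscous gel. W1 was thus 3.00-fold lower than W2 in elastic gel and 3.26-fold lower in viscous gel. Gbp7, next to Gbp3 on chromosome 3, was 2.11-fold and 2.15-fold lower in W1 in elastic and viscous gel, and Gbp4 on chromosome 5 was 2.57-fold and 2.27-fold lower. These 3 of 10 genes were at least 2-fold lower in W1 in both gels, as were 3.37% of all tested IDs. Gbp5 and Gbp2, at the ends of the chromosome 3 cluster, differed less: Gbp5 was 1.38-fold and 1.65-fold lower in W1, and Gbp2 was 1.47-fold and 1.40-fold lower. Gbp9 was 1.68-fold lower in W1 in elastic and 1.17-fold lower in viscous gel, unlike its neighbour Gbp4.

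The IRG genes were not uniform in this respect. Irgm2 was nearly level between the control numbers, 1.06-fold lower in W1 in elastic and 1.04-fold lower in viscous gel, and Irgm1 was 1.28-fold and 1.11-fold lower. Igtp was 1.67-fold and 1.35-fold lower in W1. Iigp1 ran the other way, 1.32-fold higher in W1 in elastic and 1.95-fold higher in viscous gel. In all, 9 of the 10 genes were lower in W1 than in W2 in both gels, against 35.7% of all IDs, and 0 were at least 2-fold higher, against 5.48%. Between the Jak2 V617F numbers, Gbp3, Gbp4 and Gbp7 differed less than between the control numbers in both gels, while Irgm2 differed more (1.14-fold in elastic and 1.26-fold in viscous gel). All 10 genes were lower in J1 than in J2 in both gels, as were 21.5% of all IDs. Their J1 to J2 ratios lay between 0.653 and 0.982 in elastic and between 0.531 and 0.858 in viscous gel, and 0 of the 10 were 2-fold apart in both gels, against 0.690% of all IDs. These are values of 2 libraries of 1 group, and no test was made.

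**Figure D4:**
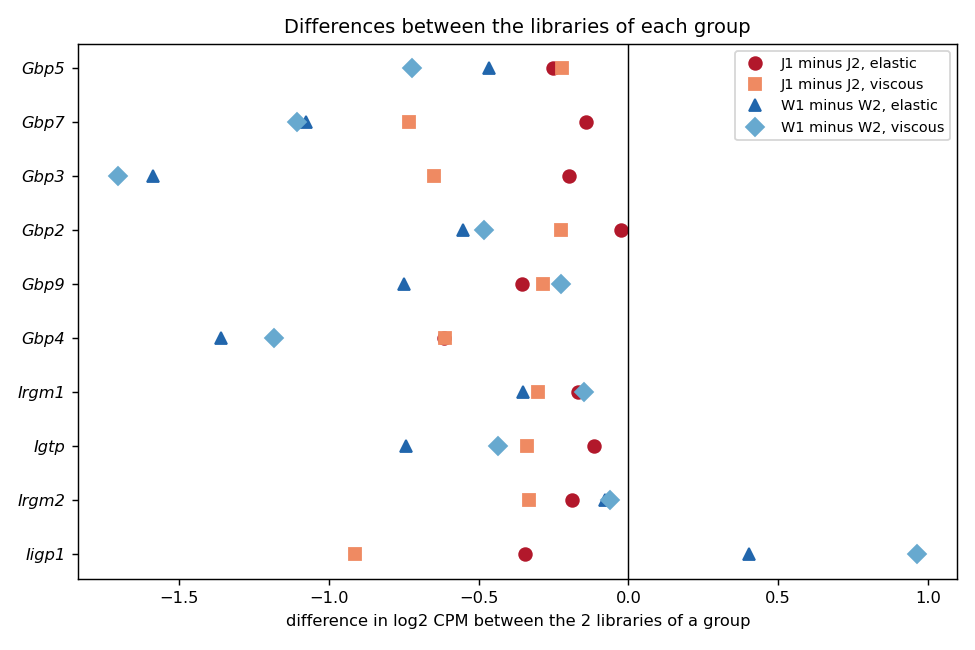
Difference in log2 CPM between the 2 libraries of each group (horizontal axis; J1 minus J2 and W1 minus W2, in elastic and viscous gel) for the 10 genes. All points lie left of 0 except those of Iigp1 for W1 minus W2 (0.40 and 0.97), and Gbp3 lies farthest left (−1.59 and −1.70).

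Across the 8 libraries the transcripts varied together to different degrees. These correlations of log2 CPM are descriptions over 8 libraries that share title numbers in pairs and also share the gel and scaling. How far reads shared between GBP paralogs, which Salmon divides by estimation, tie their counts together was not tested. Gbp3 and Gbp7 had the highest Pearson r, 0.98, followed by Gbp4 and Gbp5 with 0.97. Gbp2 had 0.96 with both Gbp4 and Gbp5. Gbp4 and Gbp9, neighbours on chromosome 5, had 0.95. Igtp and Irgm2, neighbours on chromosome 11, had only 0.57, below the 0.91 of Igtp with the more distant Irgm1. The lowest values were those of Iigp1 with Gbp3 (0.064) and Irgm2 with Gbp3 (0.15). Gbp4 was closest to the mean profile of the other 9 genes (r = 0.99) and Iigp1 farthest from it (r = 0.56).

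**Figure D5:**
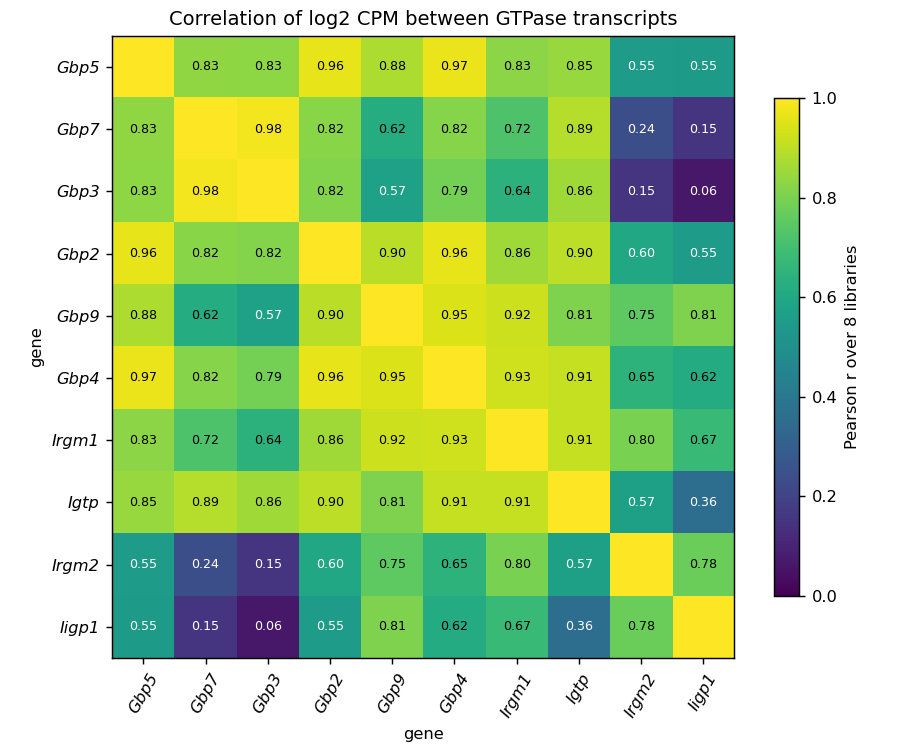
Pearson r of log2 CPM over the 8 libraries for each pair of the 10 genes (both axes), printed in each cell and coloured from 0 to 1. The GBP genes, Irgm1 and Igtp form a block of mostly high values, while Irgm2 and Iigp1 have low values with Gbp3 and Gbp7 (0.064 to 0.24).

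Of 11733 other IDs whose mean count reached 50, 47 (0.401%) had an r of at least 0.9 with the mean standardised profile of the 10 genes. The 6 closest had an r of 0.97 to 0.99. The files do not pair IDs with names, so only the 2 closest are given. ENSMUSG00000074896 (r = 0.99) stood at 52.1 and 68.7 CPM in elastic gel and 92.3 and 174 CPM in viscous gel in Jak2 V617F cells (J1 and J2). In control cells it stood at 37.7 and 113 CPM in elastic gel and 86.9 and 218 CPM in viscous gel (W1 and W2). ENSMUSG00000104713 (r = 0.99) ranged from 89.0 to 172 CPM in elastic and from 153 to 316 CPM in viscous gel. Both were picked by this r, so a likeness to the 10 genes follows from the choice. Each number was lower in elastic gel, as for all 10 genes. W1 was below W2 in both gels, as for 9 of the 10.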

How the data were processed

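The authors deposited raw whole-number counts for each Ensembl ID, as a series table and as 8 single-library files with the same values. The submitters' processing notes name Salmon, DESeq2 and GRCm38; versions, roles, gene summing, filtering and strand are not given in the sources used here. Depth was 30632355 to 38408851 counts per library. The 10 genes and all lists and alternatives were chosen with earlier results of these data known. All 10 were matched by symbol to RefSeq (GRCm38.p6). That table holds 0 Ensembl IDs for its 49997 genes, so fixed gene lists (interferon pathway, other GTPases, cell type markers) and other named genes were not analysed here. Named were all 10 members and the 6 IDs most like their mean profile, of which 2 are printed.

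The main test was edgeR 4.0.16 (R 4.3.3): filterByExpr by group (14785 IDs, including all 10 genes), TMM scaling and a quasi-likelihood model with 4 group means, two-sided, adjusted by Benjamini-Hochberg over all IDs. The genotype effect over both gels used counts summed per title number. Log2 CPM used a prior count of 2. SE and 95% intervals come from the test statistic and the model's degrees of freedom. Alternatives were DESeq2 1.42.0, limma-voom (limma 3.58.1), DESeq2 size factors, no filter, each library or sum left out, both W1 libraries left out, and the title number as a block. DESeq2 without W1 was added after seeing the data. The tests were checked on data simulated for gel over both genotypes, with libraries drawn independently and no shared effect of a title number. There, DESeq2 made a larger share of false calls than edgeR and limma-voom. Figures used matplotlib 3.10.9.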

Additional observations from a re-analysis of the deposited data

How the results depend on the processing

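The 0 calls of edgeR among the 10 genes held in all 7 comparisons under limma-voom, DESeq2 size factors, no filter and without both W1 libraries. DESeq2 called 2 genes for gel over both genotypes and 1 for gel in Jak2 V617F cells. DESeq2 without W1, added after seeing the data, called 4 and 3. With 1 library left out edgeR called 0 in the 6 comparisons on libraries, taking a single remaining library to vary as the other groups do; with 1 sum left out the genotype comparison had 0 to 1 calls (Gbp3, higher in Jak2 V617F cells without W2, with 16.6% of IDs called). The median log2 fold change of the 10 genes ranged, with 1 library left out, from −0.69 to −0.24 for gel over both genotypes, −0.63 to −0.17 in Jak2 V617F and −0.94 to −0.17 in control cells, and from −0.33 to 0.35 for the difference of gel effects. For genotype it ranged from −0.40 to 0.25 in elastic gel, −0.32 to 0.13 in viscous gel and −0.35 to 0.19 on the sums. The medians of the gel effect in each genotype and over both thus stayed below 0 in these fits, while those of genotype and of the difference of gel effects did not. Averaging genotype over the 8 libraries gave 0 calls. Of 980 recomputed values of single genes, 59 moved by more than 1 SD between replicates and 76 changed sign; the cause was not tested. With the title number as a fixed replicate block, edgeR called 1 of the 10 genes for gel over both genotypes, Gbp4 (adjusted p = 0.0481), with 5 of 14785 IDs called, and 0 in the other 3 gel comparisons. Across IDs, the deviations of same-numbered libraries had r = −0.089 in Jak2 V617F and 0.53 in control cells. With the number's meaning unstated, it was not taken as a pairing. Iigp1 had 44 to 433 counts per library and is limited most by depth.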
